A study of Mus musculus with 10 samples.

Results

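S100a1, S100a4, S100a6, S100a8, S100a9, S100a10, S100a11, S100a13 and S100a16 were followed through hearts of Lmna KO and WT mice. They were chosen by name and by position, as the S100 genes of the deposited table that lie on mouse chromosome 3 within 6 Mb of Lmna, and they are 9 of the 14626 named genes in that table. The hearts came from 5 Lmna KO mice, labelled Lmna -/-, and from 5 WT mice, all C57BL/6 and taken on postnatal day 14. Lmna is the gene of lamins A and C, filaments of the nuclear lamina, and the labels name no Cre or tissue-restricted promoter. The sources used here do not give how the allele was made. Total heart RNA was sequenced, with 1 library per mouse.

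S100 proteins are small calcium sensors, each built around a pair of EF-hand motifs, that mostly work as dimers. On binding calcium they open a surface that grips a target protein. Inside the cell those targets include calcium channels and pumps, annexins and non-muscle myosin. Outside the cell several S100 proteins act as danger signals through the receptors RAGE (encoded by Ager) and TLR4. In the heart S100a1 is known as the cardiomyocyte member, which binds the ryanodine receptor and the SERCA pump, whereas S100a8 and S100a9 are best known from neutrophils and monocytes. The S100 genes sit in a conserved chromosome block together with the epidermal differentiation genes, and in the mouse this block and Lmna share chromosome 3.

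The 9 genes formed 2 groups on the mm10 positions of the deposited table. From S100a1 (chr3:90511034-90514330) to S100a9 (chr3:90692630-90695721), 7 of them lay between 2.01 and 2.19 Mb from Lmna (chr3:88481148-88503352). S100a11 (chr3:93520496-93526288) and S100a10 (chr3:93555117-93564645) followed after a gap of 2824774 bases, at 5.02 and 5.05 Mb. Inside the first group S100a1 was followed by S100a13 (chr3:90514435-90524581), S100a16 (chr3:90541223-90543151), S100a4 (chr3:90603770-90606045), S100a6 (chr3:90612894-90614414) and S100a8 (chr3:90669071-90670034), with S100a9 last. None of the 9 overlapped another listed gene.

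S100a1 and S100a13 stood head to head, on opposite strands, with 104 bases between their starts. The sequence between the starts is shown because the 2 genes share it but differed in level and in how the libraries varied. It was read from the RefSeq promoter table of build GRCm38.p6, the assembly of mm10, as chr3:90514301-90514464 on the plus strand. Capitals mark the 104 bases between the starts, 58.7% of which are G or C.
S100a1_S100a13: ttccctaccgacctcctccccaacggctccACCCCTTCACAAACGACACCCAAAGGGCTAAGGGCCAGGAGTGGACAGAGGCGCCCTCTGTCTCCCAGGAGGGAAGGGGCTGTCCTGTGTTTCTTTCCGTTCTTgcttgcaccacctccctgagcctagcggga
Promoter sequences were matched for 8 of the 9 genes. Searches on both strands in windows of 300 bases covered 5 motifs. TATAAA was held by 13.6% of all 32851 promoter windows, CANCTG (1 form of the E-box) by 51.4%, GGGCGG by 35.7%, TGANTCA by 7.81% and TTGCNNAA by 10.8%. Other E-box forms, such as the CACGTG in the S100a6 window, were not searched. None of the 5 motifs was found in the windows of S100a1, S100a13 and S100a6. The S100a11 window held GGGCGG 3 times and TGANTCA 2 times. The S100a9 window held GGGCGG and TTGCNNAA 1 time each. S100a16 had a window at chr3:90540896-90541195 with GGGCGG and TGANTCA 1 time each and CANCTG 3 times. Its window at chr3:90537004-90537303 held CANCTG 1 time. TATAAA was found for S100a4, S100a8 and S100a9. The windows of those 3 genes are shown because they hold the same motif while the genes differed in how far the KO libraries departed from WT. Each runs from 250 bases before the start to 30 bases after it. Capitals mark TATAAA and CANCTG, which did not overlap each other.
S100a4: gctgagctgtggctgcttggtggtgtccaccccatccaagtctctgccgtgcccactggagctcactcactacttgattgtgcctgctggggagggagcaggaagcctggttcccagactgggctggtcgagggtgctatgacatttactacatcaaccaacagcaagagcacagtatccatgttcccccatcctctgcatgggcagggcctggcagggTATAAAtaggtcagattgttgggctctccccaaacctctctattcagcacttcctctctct
S100a8: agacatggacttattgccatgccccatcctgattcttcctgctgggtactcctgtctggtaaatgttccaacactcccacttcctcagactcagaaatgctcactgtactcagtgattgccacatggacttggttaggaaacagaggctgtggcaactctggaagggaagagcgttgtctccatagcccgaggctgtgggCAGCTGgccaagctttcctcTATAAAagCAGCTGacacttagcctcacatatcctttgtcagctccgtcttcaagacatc
S100a9: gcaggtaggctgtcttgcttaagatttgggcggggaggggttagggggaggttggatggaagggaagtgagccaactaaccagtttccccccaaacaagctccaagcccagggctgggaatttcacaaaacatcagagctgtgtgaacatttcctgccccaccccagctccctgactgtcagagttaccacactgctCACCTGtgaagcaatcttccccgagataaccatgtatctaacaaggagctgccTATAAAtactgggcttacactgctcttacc
The S100a4 piece is chr3:90603520-90603799 on the plus strand, that of S100a8 chr3:90668821-90669100 on the plus strand and that of S100a9 chr3:90695692-90695971 on the minus strand. TATAAA began 31 bases before the annotated start in S100a4, 30 bases before it in S100a8 and on the start base itself in S100a9. A match is a description of the letters and not a measured binding site.

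Values are normalised signal, CPM on the effective library size as the authors deposited it. A single read gave 0.0447 to 0.0672 signal units, depending on the library. Library totals were 15259545 to 22146030 reads. Lmna itself had 38.4, 22.1, 30.3, 28.7 and 48.9 signal units in KO libraries 1 to 5, against 105.2, 102.3, 110.1, 104.8 and 107.5 in WT libraries 1 to 5, so that no KO value reached the WT range. One library stood apart. KO library 5 had a mean correlation with the WT libraries of 0.906 over log2 values of all genes, against 0.962 for KO library 2 and 0.982 to 0.985 for the other 3 KO libraries. Each result below is therefore given with and without KO library 5 where the difference matters. Each library carries its own animal number in the labels, and p-values measure the spread between these animals.

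No S100 gene near Lmna passed the test. With limma on log2(signal + 0.5), 0 of 9 had a Benjamini-Hochberg adjusted p under 0.05 over the 12855 genes tested, where 0.202% of all genes did. Adjusted p ran between 0.223 and 0.868. At an unadjusted p under 0.05 there was 1 gene, S100a8. edgeR's quasi-likelihood test and DESeq2 on the recovered reads also called 0 of 9, with 3 genes each at an unadjusted p under 0.05, against 0.156% and 6.15% of all genes called. Without KO library 5 the count was again 0 of 9 and 1 gene, now S100a4, had an unadjusted p under 0.05, while the share of all genes called was 4.98%. When limma down-weighted the more variable libraries, 4 of 9 were called, S100a4, S100a6, S100a8 and S100a9, all higher in KO, against 17.7% of all genes called and 7.63% called higher. For none of the 9 were the KO and WT values free of overlap, against 10.3% of all genes tested.

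The fitted differences, KO minus WT on the log2(signal + 0.5) scale, were positive for 6 genes and negative for 3. Their median was 0.23, against -0.01 for all genes tested, and 0.25 without KO library 5, again against -0.01. All 9 passed the filter of a mean signal of 1 over the 10 libraries, and 6 had a mean of at least 5. S100a8, with a mean of 2.47 in KO and 0.947 in WT, passed the filter only through its KO values. In whole hearts, a different number of cells of one type and a different amount of RNA per cell cannot be told apart.

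**Figure D1:**
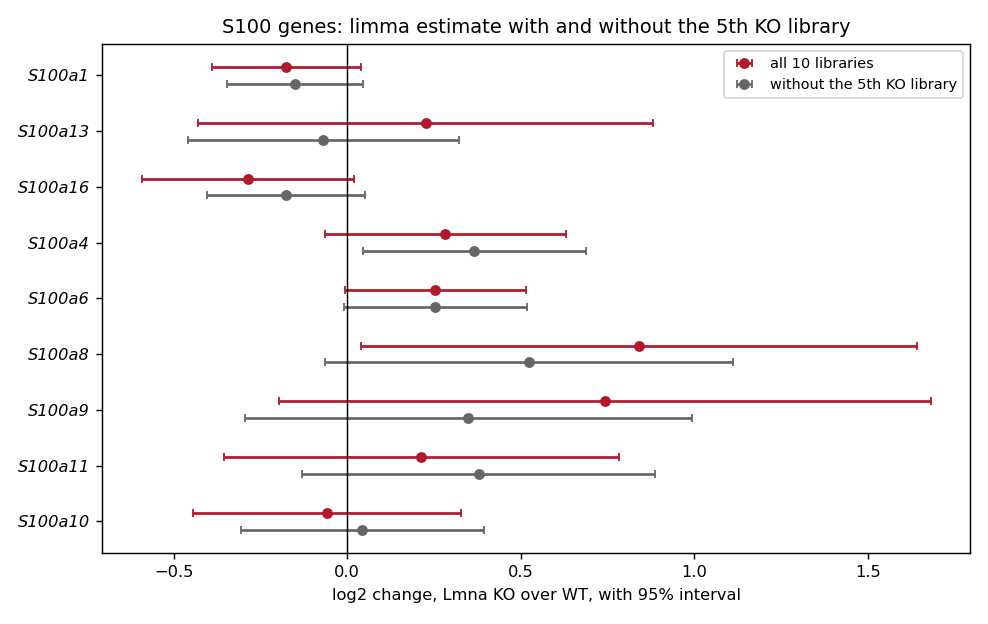
Difference between Lmna KO and WT (log2 of signal + 0.5, limma) for each of the 9 S100 genes, with 95% confidence intervals, with all 10 libraries and without KO library 5. The S100a8 estimate is the highest with all libraries, at 0.84, and is 0.52 without KO library 5, and no gene passes an adjusted p of 0.05 in either fit.

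S100a1, the calcium sensor of the cardiomyocyte, was the most abundant of the 9. Its signal was 184, 168, 203, 221 and 177 in KO libraries 1 to 5, against 207, 222, 203, 206 and 236 in WT libraries 1 to 5. KO libraries 1, 2 and 5 lay below every WT library and KO libraries 3 and 4 lay within the WT range. The mean was 191 ± 21.3 in KO and 215 ± 14.0 in WT (SD, n = 5 each), a ratio of 0.888. The log2 difference was -0.18 with a standard error of 0.10 and a 95% confidence interval of -0.39 to 0.04 (limma adjusted p = 0.314). The interval thus holds both no difference and a level lower by 0.39 on the log2 scale.

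S100a13, which is needed for the release of FGF1 and interleukin 1 alpha by the non-classical route, shares the 104 bases with S100a1. Its signal was 25.6, 14.4, 30.4, 27.6 and 66.3 in KO libraries 1 to 5, against 23.5, 25.8, 23.5, 26.7 and 24.5 in WT libraries 1 to 5. KO library 5 was the highest of all 10 and KO library 2 the lowest, while the WT libraries lay close together. The mean was 32.8 ± 19.7 in KO and 24.8 ± 1.41 in WT (SD, n = 5 each). On the log2 scale the difference was 0.23, with a 95% confidence interval of -0.43 to 0.88 (limma adjusted p = 0.674), and it turned to -0.07 without KO library 5 and was 0.47 without KO library 2. The ratio of S100a13 to S100a1 signal was 0.139, 0.0858, 0.149, 0.125 and 0.374 in KO libraries 1 to 5, against 0.114, 0.116, 0.116, 0.129 and 0.104 in WT libraries 1 to 5. The ratio ran from 0.104 to 0.129 over the WT hearts, and 4 of 5 KO libraries lay outside that range. Libraries 1, 3 and 5 lay above it, library 5 by most, and library 2 lay below it. For single genes, 23.8% to 40.9% of all tested lay above every WT library, depending on the KO library, and 25.4% to 41.9% lay below. Ratios of other gene pairs were not computed, so a trait of this pair cannot be read from the count.

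S100a16, an S100 protein found in many tissues, had 35.9, 30.004, 35.8, 28.1 and 21.9 signal units in KO libraries 1 to 5, against 37.0, 33.2, 36.1, 43.1 and 34.3 in WT libraries 1 to 5. KO libraries 2, 4 and 5 lay below every WT library, and no KO library lay above the WT range. The mean was 30.4 ± 5.86 in KO and 36.7 ± 3.85 in WT (SD, n = 5 each). KO minus WT was -0.29 on the log2 scale, with a 95% confidence interval of -0.59 to 0.02 (limma adjusted p = 0.259), and -0.18 without KO library 5.

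S100a4 and S100a6 lie 6848 bases apart. S100a4, also called fibroblast-specific protein although leukocytes express it too, binds non-muscle myosin. S100a6, calcyclin, binds annexins and the ubiquitin ligase adaptor encoded by Cacybp and is abundant in fibroblasts. S100a4 had 3.40, 2.88, 3.11, 2.25 and 2.03 signal units in KO libraries 1 to 5, against 1.75, 2.04, 2.34, 2.60 and 1.97 in WT libraries 1 to 5. KO libraries 1, 2 and 3 lay above every WT library, and KO libraries 4 and 5 lay within the WT range. The mean was 2.73 ± 0.577 in KO and 2.14 ± 0.333 in WT (SD, n = 5 each), with 26 to 76 reads behind each value. A log2 difference of 0.28 was fitted, with a 95% confidence interval of -0.07 to 0.63 (limma adjusted p = 0.317). Without KO library 5 it was 0.37, with an interval of 0.05 to 0.69, an unadjusted p of 0.0289 and an adjusted p of 0.169.

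S100a6 had 28.3, 23.0, 26.8, 18.4 and 23.9 signal units in KO libraries 1 to 5, against 19.3, 19.4, 18.6, 21.9 and 20.6 in WT libraries 1 to 5. Here 4 of 5 KO libraries lay above every WT library and KO library 4 lay below every one. The mean was 24.1 ± 3.82 in KO and 19.9 ± 1.33 in WT (SD, n = 5 each), a ratio of 1.21. The log2 difference was 0.25, with a 95% confidence interval of -0.01 to 0.52 (limma unadjusted p = 0.0562, adjusted p = 0.248). Leaving out KO library 5 gave 0.25 as well.

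**Figure D2:**
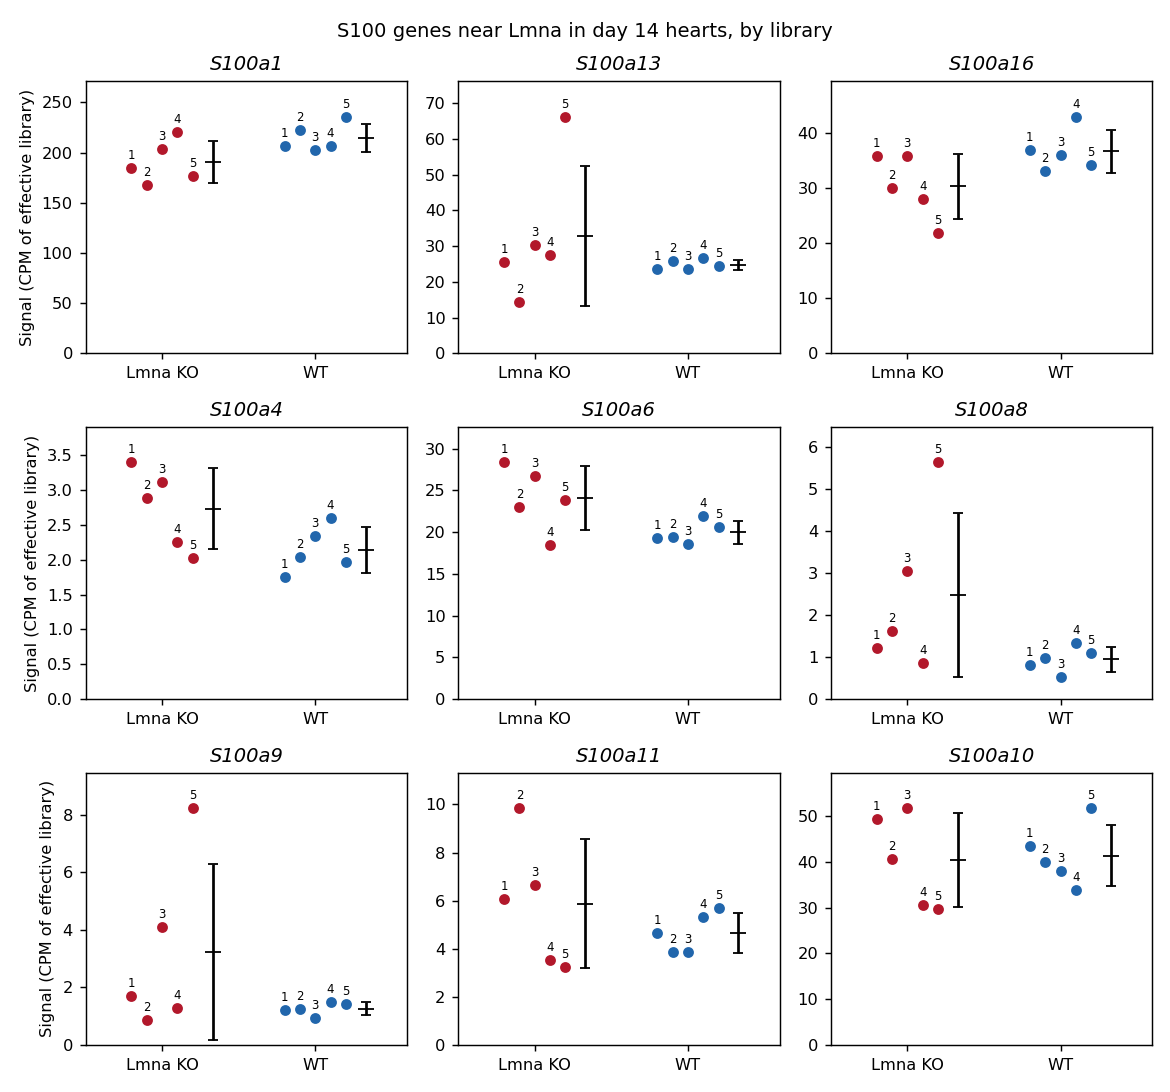
Normalised signal of each of the 9 S100 genes in every library, Lmna KO left and WT right, with means and standard deviations (n = 5 each). The KO and WT values overlap for every gene, and KO library 5 holds the highest S100a8, S100a9 and S100a13 values of the 10 libraries.

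S100a8 and S100a9 encode the 2 chains of calprotectin, which neutrophils and monocytes carry in bulk and release as a ligand of TLR4 and RAGE, and which withholds zinc and manganese from microbes. S100a8 had 1.21, 1.61, 3.06, 0.857 and 5.64 signal units in KO libraries 1 to 5, against 0.806, 0.975, 0.534, 1.33 and 1.10 in WT libraries 1 to 5. KO libraries 2, 3 and 5 lay above every WT library, while KO libraries 1 and 4 lay within the WT range. These values rest on 27, 28, 59, 16 and 111 reads in KO libraries 1 to 5, against 12, 21, 8, 26 and 20 reads in WT libraries 1 to 5. The mean was 2.47 ± 1.96 in KO and 0.947 ± 0.299 in WT (SD, n = 5 each), a ratio of 2.61. The log2 difference was 0.84, with a standard error of 0.37 and a 95% confidence interval of 0.04 to 1.64 (limma unadjusted p = 0.0412, adjusted p = 0.223). Without KO library 5 the ratio was 1.78 and the log2 difference 0.52 (adjusted p = 0.277).

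S100a9 had 1.70, 0.864, 4.10, 1.29 and 8.23 signal units in KO libraries 1 to 5, against 1.21, 1.25, 0.935, 1.48 and 1.42 in WT libraries 1 to 5. KO libraries 1, 3 and 5 lay above every WT library and KO library 2 lay below every one. The mean was 3.23 ± 3.06 in KO and 1.26 ± 0.214 in WT (SD, n = 5 each), a ratio of 2.57. The fitted log2 difference was 0.74, with a 95% confidence interval of -0.20 to 1.68 (limma adjusted p = 0.329), and 0.35 without KO library 5 (adjusted p = 0.521). In the authors' deposited table the log2 ratio was 1.37 for S100a8 with a false discovery rate of 0.0509, and 1.35 for S100a9 with a false discovery rate of 0.0753. The authors' deposited table had 0 of the 9 genes under a false discovery rate of 0.05, against 5.52% of its 14646 rows, and these were the only 2 of the 9 with an unadjusted p under 0.05 in it.

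The reads of the calprotectin chains mostly stayed in one proportion. The ratio of S100a8 to S100a9 reads was 0.711, 1.87, 0.747, 0.667 and 0.685 in KO libraries 1 to 5, against 0.667, 0.778, 0.571, 0.897 and 0.769 in WT libraries 1 to 5. KO library 2, with 28 S100a8 and 15 S100a9 reads, was the exception. KO library 5, with the highest level of both chains, lay within the WT range of the ratio.

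Neutrophil markers were read beside the calprotectin chains. Of 20 markers written down, 12 were listed and 5 passed the filter, S100a8 and S100a9 among them. Of the 5, 0 were called, against 0.202% of all genes. The summed signal of the 10 listed markers other than S100a8 and S100a9 was 8.14, 8.87, 9.54, 8.25 and 29.7 in KO libraries 1 to 5, against 5.92 to 6.99 over the WT libraries. KO library 5 was the highest for the granule protein gene Lcn2, with 9.14 signal units against at most 0.726 in the other KO libraries and at most 0.384 in the WT libraries. It was also the highest for Chil3, with 4.01, and for the neutrophil collagenase gene Mmp8, with 2.34. Lcn2, Chil3 and Mmp8 were picked from the 10 after values were seen. Cxcr2, the chemokine receptor of neutrophils and the most abundant of the list, averaged 4.76 ± 0.727 in KO and 3.39 ± 0.438 in WT (SD, n = 5 each; limma adjusted p = 0.131). The defining markers Ly6g, Camp, Mpo and Elane were not among the listed genes, so they have no value here. The part of neutrophils in the S100a8 and S100a9 values was not tested.

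S100a10 and S100a11, in the distal group, bind annexins. S100a10, or p11, pairs with annexin A2 and brings plasminogen activator and ion channels to the cell surface, and it differs from other S100 proteins in no longer binding calcium. It had 49.4, 40.6, 51.8, 30.6 and 29.6 signal units in KO libraries 1 to 5, against 43.4, 39.9, 38.1, 33.9 and 51.7 in WT libraries 1 to 5. KO libraries 4 and 5 lay below every WT library and KO library 3 just above the highest. The mean was 40.4 ± 10.3 in KO and 41.4 ± 6.73 in WT (SD, n = 5 each). The fitted log2 difference was -0.06, with a 95% confidence interval of -0.44 to 0.33 (limma adjusted p = 0.868), and 0.04 without KO library 5.

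S100a11, or calgizzarin, binds annexin A1. It had 6.08, 9.85, 6.64, 3.54 and 3.25 signal units in KO libraries 1 to 5, against 4.64, 3.85, 3.87, 5.30 and 5.70 in WT libraries 1 to 5. KO libraries 1, 2 and 3 lay above every WT library and KO libraries 4 and 5 below every one. The mean was 5.87 ± 2.68 in KO and 4.67 ± 0.831 in WT (SD, n = 5 each). On the log2 scale the difference was 0.21, with a 95% confidence interval of -0.36 to 0.78 (limma adjusted p = 0.647), 0.38 without KO library 5 (adjusted p = 0.361) and 0.012 without KO library 2 (adjusted p = 0.975).

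The KO libraries departed from WT in different members. KO library 3 had 7 of the 9 genes above every WT library and none below. KO library 4 had 1 above, S100a13, and 4 below, S100a6, S100a10, S100a11 and S100a16. KO library 5 had 4 above, S100a6, S100a8, S100a9 and S100a13, and 4 below, S100a1, S100a10, S100a11 and S100a16. KO library 1 had 4 above and 1 below, and KO library 2 had 4 above and 4 below. Over all genes tested, the share above every WT library was 23.8% to 40.9% and the share below was 25.4% to 41.9% over the 5 KO libraries, both highest in KO library 5. The coefficient of variation was larger over KO than over WT libraries for 9 of 9 members, as it was for 90.2% of 12854 genes. Its median over the members was 25.5% in KO and 15.5% in WT, against 22.4% in KO and 8.53% in WT over all genes.

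**Figure D3:**
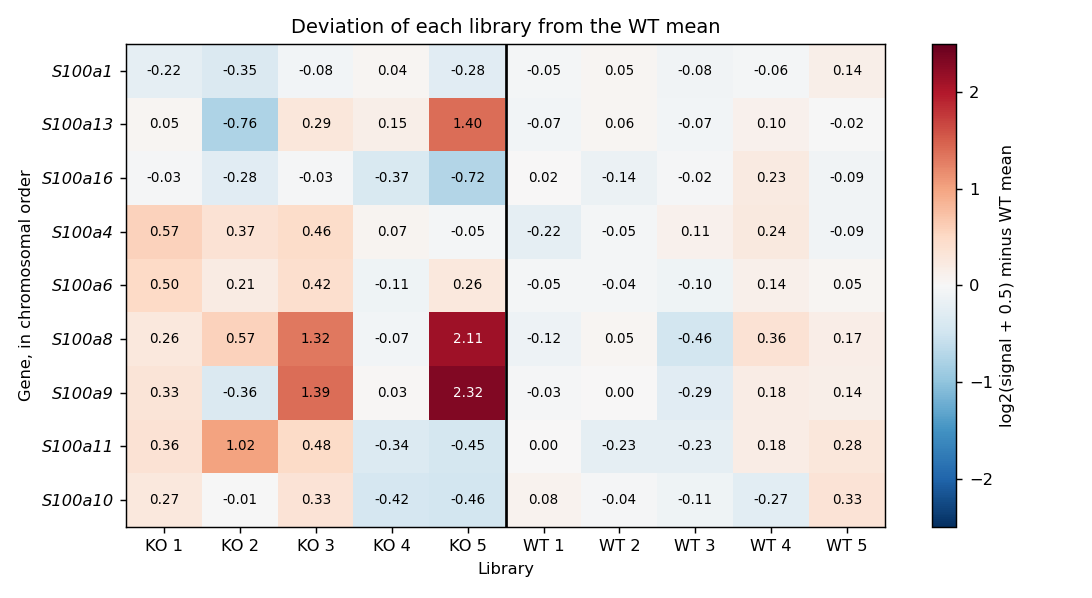
Deviation of each library from the WT mean, in log2 of signal + 0.5, for the 9 S100 genes, with KO libraries before WT libraries. S100a8 and S100a9 deviate most in KO library 5, where S100a13 is also high, while S100a11 is high in KO library 2 and low in KO libraries 4 and 5.

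Members that lie side by side did not always deviate alike. Over the 10 libraries, the smallest root mean square difference between the log2 deviations of 2 members was 0.162, for the neighbours S100a4 and S100a6. S100a1 and S100a16 followed with 0.245 and S100a10 and S100a16 with 0.286. S100a8 and S100a9 differed by 0.317, and the head-to-head pair S100a1 and S100a13 by 0.570. Among 10464 genes whose mean signal reached 5, those nearest to each member by the same measure were Fkbp3 for S100a1 (0.0453), Lrrk1 for S100a16 (0.0799), Cyth2 for S100a13 (0.0987), Piezo1 for S100a6 (0.103), Filip1l for S100a10 (0.110), Src for S100a4 (0.114) and Bgn for S100a11 (0.127). The nearest genes to S100a9 and S100a8 were farther off, Hrct1 at 0.338 and Jade2 at 0.343. The measure is not scaled to the spread or depth of a gene. S100a9 had 14 to 162 reads and S100a8 had 8 to 111 reads per library. Src was among the 3 nearest to both S100a4 and S100a6, and Snhg8 among the 3 nearest to both S100a8 and S100a9.

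Per kilobase of exon, taken from the GENCODE vM21 basic annotation because the sources used here do not give the authors' gene lengths, S100a1 stood far above the rest, with 275 ± 30.7 signal units per kb in KO and 309 ± 20.2 in WT (SD, n = 5 each). S100a10 was next, with 50.4 ± 12.8 in KO and 51.6 ± 8.39 in WT. S100a13 had 45.9 ± 27.5 in KO and 34.7 ± 1.97 in WT. On the same scale, S100a16 had 21.1 ± 4.07 in KO and 25.5 ± 2.68 in WT, and S100a6 had 29.8 ± 4.73 in KO and 24.7 ± 1.64 in WT. S100a11 had 11.5 ± 5.25 in KO and 9.14 ± 1.63 in WT. The lowest 3 in level per kb were S100a4, with 5.49 ± 1.16 in KO and 4.30 ± 0.668 in WT, S100a9, with 6.20 ± 5.86 in KO and 2.41 ± 0.410 in WT, and S100a8, with 5.09 ± 4.03 in KO and 1.95 ± 0.614 in WT. Neighbours in this order whose WT values overlapped were S100a16 with S100a6 and S100a9 with S100a8. In KO the values of S100a10 with S100a13, of S100a13 with S100a6, of S100a6 with S100a16, of S100a16 with S100a11, of S100a11 with S100a9 and of S100a9 with S100a4 and S100a8 also overlapped.

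Tested genes were sparse between the S100 groups, but not on the Lmna side of S100a1, where Ilf2, Snapin and Chtop lie close together. Chtop, which encodes a chromatin-bound mRNA export factor, ends 1.59 kb before S100a1 and averaged 97.6 ± 13.2 in KO and 105 ± 5.58 in WT (SD, n = 5 each; limma adjusted p = 0.5003). Tchh, the hair follicle gene trichohyalin and an S100-fused family member, was the only tested gene between S100a1 and S100a10 that is not one of the 9. It had 1.03, 1.04, 2.18, 4.29 and 5.33 signal units in KO libraries 1 to 5, against 0.739, 0.186, 0.534, 0.918 and 0.712 in WT libraries 1 to 5. All KO values lay above all WT values, and 10.3% of all genes tested had no overlap between the groups. The log2 difference of 1.37 did not pass the test (limma adjusted p = 0.114), and neither did 1.11 without KO library 5 (adjusted p = 0.0818). The WT mean of Tchh, 0.618, was under the filter of 1, so the gene was tested only through its KO values. Its WT values were low, as a single read gave 0.0464 signal units in WT library 2. Them4, a thioesterase gene 745 kb beyond S100a10, averaged 10.9 ± 4.04 in KO and 13.6 ± 1.62 in WT (SD, n = 5 each; adjusted p = 0.360). A further list of 16 genes held other S100 family genes and S100pbp, which is named as the gene of an S100 binding protein. Of these 16, 4 were listed and 2 passed the filter, Tchh and S100pbp, with 0 called, against 0.202% of all genes. S100b, on chromosome 10, was below the filter with 0.716 ± 0.162 in KO and 0.535 ± 0.156 in WT.

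Among all 115 tested genes within 6 Mb of Lmna, leaving out Lmna itself, 2 passed the test, or 1.74%, against 0.202% of all genes. Neither was an S100 gene and both lay on the other side of Lmna, beside each other. Lrat, the retinol esterifying enzyme gene (chr3:82892582-82903974), fell to 0.217 ± 0.120 in KO, against 5.22 ± 0.990 in WT (SD, n = 5 each; log2 difference -2.99, limma adjusted p = 1.96e-05), with 0 of 5 KO libraries within the WT range. Rbm46, an RNA-binding protein gene (chr3:82836523-82876483), rose to 2.73 ± 0.625 in KO, against 0.570 ± 0.436 in WT (log2 difference 1.65, adjusted p = 0.0259), with 5 of 5 KO libraries above every WT library. The Rbm46 WT mean was under the filter of 1, so the gene was tested only through its KO values. The Rbm46 call was lost on leaving out any of KO libraries 1, 2 and 3 or WT libraries 1 to 4. In those fits the limma adjusted p was 0.0646 to 0.101. An unadjusted p under 0.05 was reached by 21.7% of the 115 genes and by 20.8% of all genes, and the median log2 difference was 0.03 against -0.01. Within 3 Mb of Lmna, which holds the 7 proximal S100 genes, 0 of 96 genes were called, with 21.9% at an unadjusted p under 0.05 (limma). Without KO library 5, 5 of the 115 genes were called (Fbxw7, Lrat, Lrba, Rbm46 and Sfrp2), or 4.35%, against 4.98% of all genes.

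**Figure D4:**
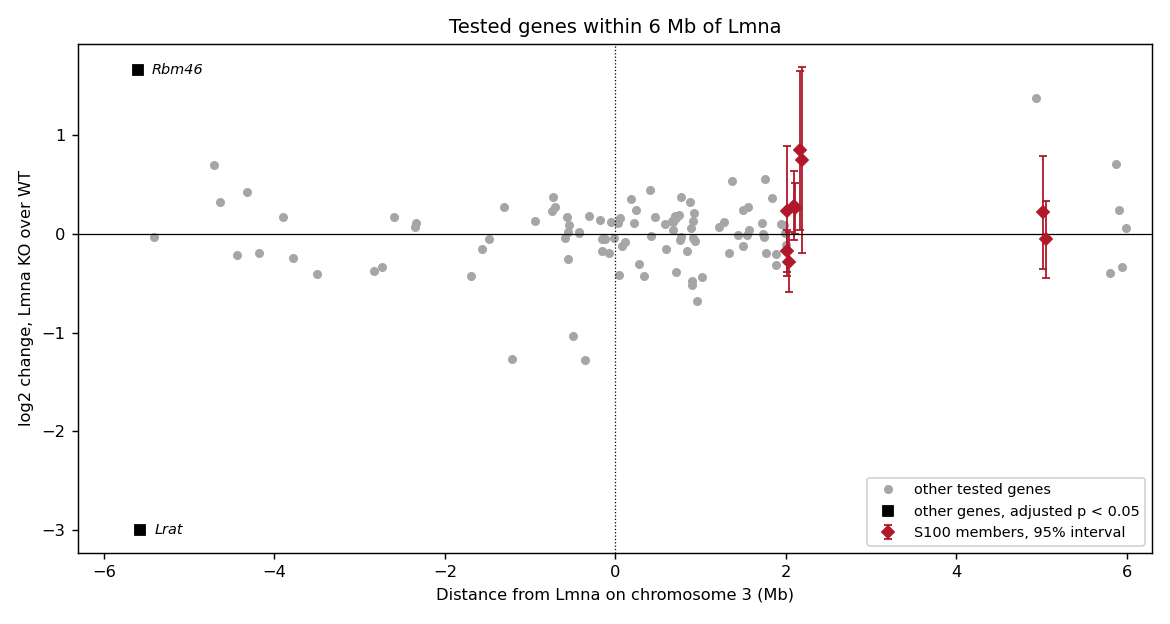
Difference between Lmna KO and WT (log2 of signal + 0.5) of each tested gene against its distance from Lmna in Mb, with the 9 S100 genes marked. The S100 genes sit at 2.01 to 2.19 Mb and at 5.02 to 5.05 Mb, and the called genes Lrat and Rbm46 lie on the opposite side, at -5.58 and -5.60 Mb.

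Receptors and signalling genes of secreted S100 proteins gave 0 called of 14 tested, where 0.202% of all genes were called. Their median log2 difference was 0.21, against -0.01 over all genes. Tlr4, the receptor of calprotectin, averaged 92.2 ± 54.4 in KO and 53.3 ± 5.48 in WT (SD, n = 5 each; limma adjusted p = 0.250), and its highest KO value, 181, was in KO library 5. Cd14, the TLR4 co-receptor of monocytes, had 5.68, 6.16, 5.03, 5.04 and 10.5 signal units in KO libraries 1 to 5, against 3.56, 3.11, 2.80, 4.08 and 3.18 in WT libraries 1 to 5. All KO values of Cd14 lay above all WT values, with a log2 difference of 0.82 (adjusted p = 0.0972). Cd14 was, once KO library 5 was left out, the 1 gene of the list called, with 0.64 (adjusted p = 0.0200), against 4.98% of all genes. Ager, which encodes RAGE, averaged 1.36 ± 0.733 in KO and 0.764 ± 0.227 in WT (adjusted p = 0.285). It passed the filter of 1 only through its KO values. Rela, an NF-kB subunit downstream of both receptors, averaged 30.9 ± 5.20 in KO and 23.9 ± 1.43 in WT, with no overlap (adjusted p = 0.139). Alcam was also without overlap, as were 10.3% of all genes tested.

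Intracellular partners and targets of S100 proteins gave 0 called of 28 tested, where 0.202% of all genes were called. Their median log2 difference was -0.03. Among the annexin partners, Anxa2 (of S100a10) averaged 83.5 ± 18.6 in KO and 101 ± 12.2 in WT (SD, n = 5 each; limma adjusted p = 0.286), and Anxa1 (of S100a11) averaged 34.3 ± 8.02 in KO and 34.5 ± 2.31 in WT (adjusted p = 0.898). Cacybp, the S100a6 partner, averaged 45.4 ± 3.29 in KO and 55.5 ± 2.61 in WT, without overlap (adjusted p = 0.118). Myh9, the non-muscle myosin bound by S100a4, averaged 246 ± 72.0 in KO and 312 ± 23.0 in WT (adjusted p = 0.248). Among the calcium-handling targets of S100a1, the ryanodine receptor gene Ryr2 averaged 3596 ± 647 in KO and 5533 ± 454 in WT (log2 difference -0.64, adjusted p = 0.105). Ryr2 was, once KO library 5 was left out, the 1 gene of the list called, with -0.53 (adjusted p = 0.0291), against 4.98% of all genes. Atp2a2, which encodes SERCA2, averaged 9297 ± 2676 in KO and 14444 ± 1081 in WT (adjusted p = 0.176). The KO and WT values of Ryr2 and Atp2a2, like those of Cacybp, did not overlap, as for 10.3% of all genes tested. Fgf1, whose export needs S100a13, averaged 203 ± 77.2 in KO and 246 ± 21.3 in WT (adjusted p = 0.445). Its lowest value, 68.8, was in KO library 5, where S100a13 was highest. The Fgf1 log2 difference was -0.41 with all libraries and -0.06 without KO library 5 (limma adjusted p = 0.742). A link between the 2 genes was not tested.

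Markers of the cell types that express these S100 genes were summed per library. In the fit with all libraries, 0.202% of all genes were called. Cardiomyocyte markers, 18 of 18 tested and 0 called, summed to 108130 to 179869 in KO and 181322 to 201256 in WT, with the lowest sum in KO library 5. Without that library 2 of the 18 were called, Ryr2 lower and Nppa higher, against 4.98% of all genes. The sums were 179869, 111545, 156394, 175850 and 108130 in KO libraries 1 to 5. KO libraries 2 and 5 were lowest in both the sum and S100a1. KO library 1 had the highest KO sum and an S100a1 value below every WT library. KO libraries 3 and 4 had S100a1 values within the WT range. Fibroblast markers, 16 of 16 tested and 0 called, summed to 3161 in KO library 5 and to 5543 to 7600 in the other KO libraries, against 6089 to 7238 in WT. Their median log2 difference was -0.31 with all libraries and 0.02 without KO library 5. Among the KO libraries, S100a4, S100a10, S100a11 and S100a16 were also lowest in library 5, whereas the other 5 members were not. Macrophage markers, 18 tested and 0 called, summed to 296 to 571 in KO and 387 to 441 in WT, and KO library 5, with the highest S100a8 and S100a9, had the lowest sum. Without that library 1 macrophage marker was called, Cd14, higher in KO. The part of these cell types in the S100 values was not tested.

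**Figure D5:**
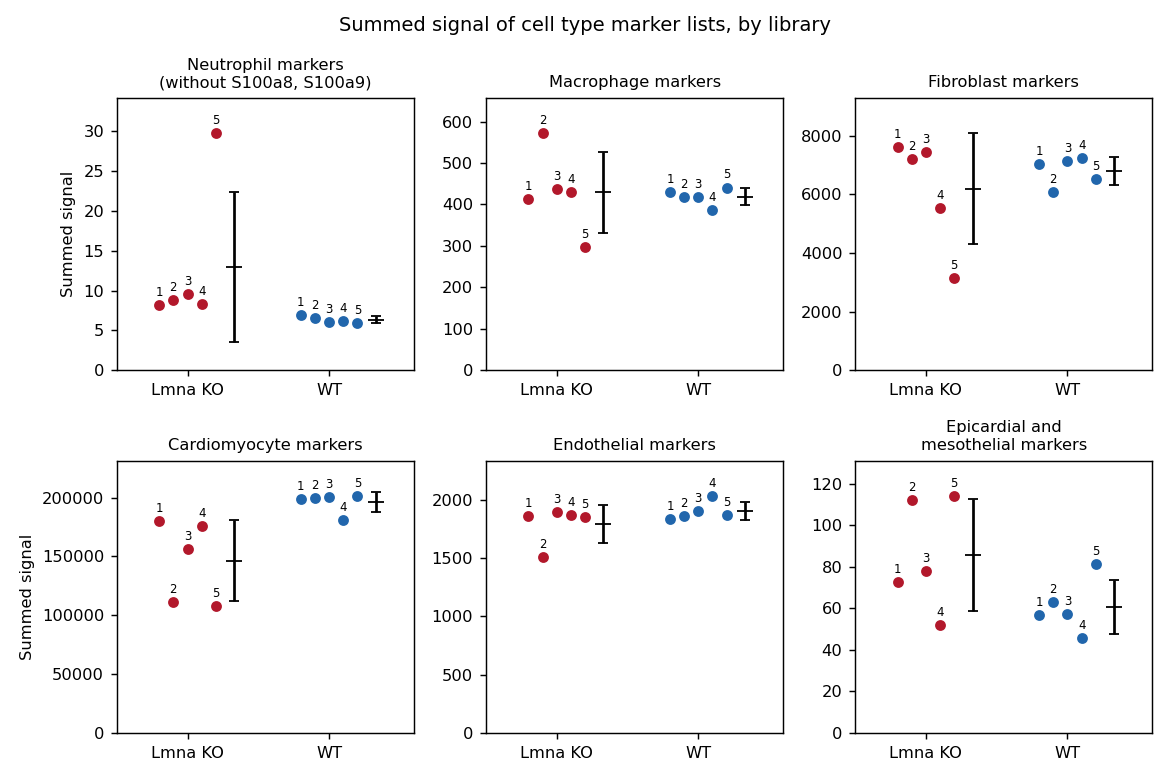
Summed signal of the marker genes of 6 cell types in each library, Lmna KO left and WT right, with means and standard deviations (n = 5 each). KO library 5 holds the highest neutrophil sum, 29.7 against 5.92 to 6.99 in WT, and the lowest fibroblast, cardiomyocyte and macrophage sums.

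The remaining lists had 0 called with all libraries, against 0.202% of all genes. Endothelial markers (12 tested) had a median log2 difference of -0.14, and without KO library 5 Kdr was called lower and Vwf higher. In that fit 4.98% of all genes were called. The smooth muscle and pericyte markers (10 tested) had a median of -0.04. Epicardial and mesothelial markers (12 tested) had a median of 0.50, and of 0.26 without KO library 5, when Krt18 was called higher. Skin markers, included because epidermal genes neighbour the S100 genes, had 2 tested members, Krt10 and Trp63, with a median of -0.09. Erythroid markers (4 tested) had a median of -0.78, and of -0.31 without KO library 5. Their part in the S100 values was not tested.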

How the data were processed

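The submitters' processing notes name build mm10 and the tools TopHat2, Cufflinks and edgeR. For the versions, roles, read counter and strand use, nothing is given in the sources used here. For each gene and library the authors deposited a signal value, a CPM on the effective library size, and a second table with signal levels per genotype, log2 ratios, p-values, false discovery rates and positions. All values came out as whole reads within 0.01 read (100% of values), and these reads served the count tests. A total of 21 rows whose names had turned into dates (0.134% to 0.204% of reads) were left out.

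Signal was tested with limma 3.58.1 in R 4.3.3 on log2(signal + 0.5), two-sided, with an intensity trend and genotype as the only factor, over 12855 genes with a mean of at least 1. This scale understates the differences of low genes. edgeR 4.0.16 and DESeq2 1.42.0 were alternatives, and the limma and edgeR fits were tested on simulated data. The simulation took its spread from the WT libraries only and seeded changes only in genes with a mean of at least 5. It therefore does not cover the wider KO spread or genes as low as S100a4, S100a8 and S100a9. Named genes were the 9 members, Lmna, called genes within 6 Mb, tested neighbours, called, most abundant or defining list members, and the genes nearest in pattern. Other list members given for their known tie to a member, and Lcn2, Chil3 and Mmp8, were picked after values were seen. Members and lists (other S100 family with S100pbp, receptors, partners and the marker lists) were chosen with earlier results of these data known. Sequences are from RefSeq, build GRCm38.p6.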

Additional observations from a re-analysis of the deposited data

How the results depend on the processing

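The call of 0 of 9 S100 genes held without the filter, with pseudocounts of 0.1 and 1, a minimum mean of 5 (which gave no value for S100a4, S100a8 and S100a9), median-of-ratios and upper-quartile scaling, edgeR, DESeq2, leaving out each library in turn (0 to 0 called) and leaving out KO libraries 2 and 5 together. With library weights, 4 were called: S100a4 at 0.43 (adjusted p = 0.0395), S100a6 at 0.35 (0.0262), S100a8 at 0.87 (0.0358) and S100a9 at 0.89 (0.0268). S100a10 changed sign to 0.15 with library weights, 0.031 without KO library 4, 0.043 without KO library 5, 0.025 without WT library 5 and 0.062 without KO libraries 2 and 5, and S100a13 to -0.069 without KO library 5. The causes were not tested. Leaving out 1 library gave -0.23 to -0.13 for S100a1, 0.21 to 0.37 for S100a4, 0.19 to 0.34 for S100a6, 0.52 to 1.07 for S100a8, 0.35 to 1.02 for S100a9, -0.16 to 0.043 for S100a10, 0.01 to 0.38 for S100a11, -0.069 to 0.47 for S100a13 and -0.35 to -0.18 for S100a16. The 2 genes called within 6 Mb of Lmna became 1 with edgeR, 0 within 3 Mb, 3 within 10 Mb and 1 to 5 with 1 library left out. Calls over all genes numbered 26, and 786 with DESeq2, 2280 with library weights, 14 with a minimum mean of 5, 6 to 640 with 1 library left out (640 without KO library 5) and 1370 without KO libraries 2 and 5. With the replicate number as a replicate block, 0 members and 35 genes in all were called, with S100a8 at 0.84 (adjusted p = 0.246). Same-numbered libraries had correlations of -0.13 to 0.18 between their deviations, which cannot show whether same-numbered mice were paired. Depth limits S100a8, S100a9 and S100a4 most: S100a8 had 8 to 111 reads per library.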
